A study of Mus musculus with 16 samples.

Results

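RNA levels of 36 genes of cholesterol and fatty acid synthesis and of their control by SREBP were examined in protrusions (Ps) and cell bodies (CB) of NIH/3T3 cells, a mouse fibroblast line. The genes were given by name as known enzymes and regulators of these pathways, and all 36 were among the 13015 genes of the table. The set was chosen with earlier results of these data known, so its shares beside those of all genes are descriptions. By role they comprised 18 enzymes of the sterol pathway from acetyl-CoA to cholesterol, 6 genes of SREBP control and sterol transport, 3 enzymes of fatty acid synthesis, 7 fatty acid desaturases and elongases, and 2 acyl-CoA synthetases. All cells came from this line, which was not authenticated according to the study's methods, and carried a transfected siRNA. This was AllStars negative control siRNA in siControl cells and an siRNA against Apc in siAPC cells. They were serum-starved, left for 2 h on a filter with pores of 3.0 µm, given lysophosphatidic acid (LPA) in the lower chamber for 1 h, and fixed. Protrusions that had grown through the pores and the cell bodies above were then collected separately, so that each of the 4 groups (CB and Ps, each with siControl or siAPC) held 4 total RNA libraries. Gene positions are GRCm38 bounds from GENCODE mouse release 21, in which every one is annotated as protein coding. Values are log2 CPM as deposited, where CPM is a gene's reads scaled to library size, errors on changes are standard errors (SE), and a gene was called changed at a Benjamini-Hochberg adjusted p below 0.05 over all 13015 genes in limma. All 36 genes had a mean value of at least 1 over the 16 libraries.

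Cholesterol is built from acetyl-CoA, with many early steps catalysed by soluble enzymes and the later sterol steps by enzymes bound to the endoplasmic reticulum (ER), while fatty acids are made in the cytosol and are desaturated and elongated at the ER. The SREBP transcription factors are made as ER membrane proteins. Scap carries them to the Golgi for cleavage when sterols are low, and the Insig proteins hold them in the ER when sterols are high. Srebf2 mainly drives sterol genes and Srebf1 mainly fatty acid genes. Fibroblasts use both pathways to make membrane, and mRNAs for ER membrane proteins are usually translated on the ER surface.

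SREBP binds sterol regulatory elements, often beside boxes for the factor NF-Y, in promoters of these genes. The 250 bases before the start site are shown for the 4 genes that were lowest with siAPC in CB among those called and with an entry in the RefSeq promoter table (GRCm38.p6), since these genes are described below. Each is written 5′ to 3′ on the gene's strand, with capitals marking the sterol element letters TCACNCCAC and the NF-Y box CCAAT on either strand (ATTGG on the reverse).
Hmgcs1 (chr13:119690101-119690350, plus strand): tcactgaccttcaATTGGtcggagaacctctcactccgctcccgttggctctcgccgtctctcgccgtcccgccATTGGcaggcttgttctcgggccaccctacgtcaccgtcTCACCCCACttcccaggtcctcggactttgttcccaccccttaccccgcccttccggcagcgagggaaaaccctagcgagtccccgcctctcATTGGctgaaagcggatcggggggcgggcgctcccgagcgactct
Idi1 (chr13:8885356-8885605, plus strand): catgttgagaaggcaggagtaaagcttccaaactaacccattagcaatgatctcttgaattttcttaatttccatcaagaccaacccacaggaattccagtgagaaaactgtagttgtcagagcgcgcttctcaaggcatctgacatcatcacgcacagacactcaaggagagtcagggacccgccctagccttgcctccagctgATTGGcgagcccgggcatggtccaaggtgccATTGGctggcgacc
Insig1 (chr5:28071162-28071411, plus strand): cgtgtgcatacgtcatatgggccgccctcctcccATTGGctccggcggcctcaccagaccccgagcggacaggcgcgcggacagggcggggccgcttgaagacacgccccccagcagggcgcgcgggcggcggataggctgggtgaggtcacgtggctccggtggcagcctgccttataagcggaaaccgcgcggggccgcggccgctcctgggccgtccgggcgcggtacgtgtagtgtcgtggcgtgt
Tm7sf2 (chr19:6067851-6068100, minus strand): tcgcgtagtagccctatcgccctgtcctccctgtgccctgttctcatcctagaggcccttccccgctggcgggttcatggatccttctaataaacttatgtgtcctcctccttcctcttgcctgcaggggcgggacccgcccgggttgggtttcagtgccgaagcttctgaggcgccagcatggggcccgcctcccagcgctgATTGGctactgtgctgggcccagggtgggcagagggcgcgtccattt

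Hmgcs1 held the sterol element letters 137 to 129 bases before its start and NF-Y boxes at 237 to 233, 176 to 172 and 45 to 41. Idi1 held NF-Y boxes at 45 to 41 and 14 to 10, Insig1 at 216 to 212 and Tm7sf2 at 47 to 43, where the RefSeq start of Tm7sf2 lies 523 bases from the GENCODE gene start. Over the window from 250 bases before to 50 after the start, 29 of the 36 genes had 38 promoters in the table (Fdps, Fdft1, Sqle, Stard4, Scd1, Scd2 and Fads1 had no entry). The NF-Y letters occurred on either strand in 63.2% of these 38 promoters and in 37.4% of all 32851 promoters, the GC box GGGCGG in 76.3% and 35.7%, the E-box CACGTG in 18.4% and 7.15%, the sterol element letters in 2.63% and 1.24%, and the TCF/LEF letters CTTTGA in 4 of the 38 and in 5257 of all 32851. Each motif was counted on its own, also where it overlapped another, and promoters of the same gene can share bases. Of the 15 genes with a promoter that were lower with siAPC in CB or Ps, 12 had an NF-Y box and 13 a GC box, and of the other 14 genes 11 had each. A match is a description of letters, not of a site.

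Apc, the target of the knockdown, was lower in all 8 siAPC libraries than in any siControl library of the same fraction. Apc stood at 2.13, 2.59, 3.54 and 2.17 in the siControl CB libraries and at 0.54, 1.42, 1.02 and 0.75 in the siAPC CB libraries. In Ps it stood at 3.52, 3.73, 3.29 and 3.56 with siControl and at 1.63, 1.90, 1.87 and 1.33 with siAPC. Apc was thus left at 31.3% of its siControl level in CB (log2 change -1.67 ± 0.25, adjusted p = 0.00014) and at 27.9% in Ps (-1.84 ± 0.25, adjusted p = 3.1e-05).

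The libraries held 13466225 to 20296087 reads in listed genes. Mitochondrial transcripts took 1.37% to 1.95% of these in CB, 2.65% to 4.16% in siControl Ps and 2.18% to 2.86% in siAPC Ps, and the deposited values carry a scaling factor that averaged 1.07 in CB and 0.875 in Ps with siControl, and 1.09 and 0.979 with siAPC. In 4 libraries (siControl CB replicate 3 and replicate 2 of the other 3 groups) the deviation from the other replicates fell with a gene's GC content (Spearman rho -0.65 to -0.52 across 9878 genes, against -0.04 to 0.53 in the other 12). The 7 fibroblast markers examined were all listed, with a summed level of 28690 to 30779 CPM in CB and 18209 to 20781 CPM in Ps with siControl, and of 34461 to 37060 and 21286 to 23009 CPM with siAPC. Singly they went both ways in siControl Ps/CB, with 2 called higher and 4 lower, beside 29.1% and 31.2% of all genes. Their changes ran from -1.46 to 0.81. Of 6 fat cell markers only Pparg was listed, at 0.165 to 0.669 CPM, and Adipoq, Fabp4, Plin1, Lep and Cidec were not among the listed genes. The part of mitochondrial share and fibroblast marker level in the values below was not tested. CB and Ps are parts of cells of the same line. Between siRNAs, fewer cells of a type and less RNA per cell cannot be told apart in such bulk fractions. The labels only number the replicates, so p-values measure the spread between these libraries.

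The Ps/CB comparison asked which of these RNAs are concentrated in protrusions. In siControl cells 10 of the 36 genes were higher in Ps, 15 were lower and 11 did not pass the test. Of all 13015 genes, 29.1% were called higher and 31.2% lower in this comparison, so that the share of members higher was near the background and the share lower was above it. The median change was -0.17 over the 36 genes and -0.00 over all genes. After a loess correction for GC content and transcript length these medians were -0.02 and 0.01. Of the 7 soluble enzymes of the sterol pathway, 5 rose in Ps and none fell, with all 7 changes positive and a median of 0.34. Of the 11 ER-bound enzymes of the same pathway 1 rose and 5 fell, with a median of -0.22. When libraries were scaled to their total listed reads in place of the deposited scaling, the median of all genes moved by -0.30, and the soluble sterol enzymes then had 4 positive and 3 negative changes, 1 of them called, with a median of 0.04 against -0.30 over all genes. The 11 ER-bound enzymes were then all negative, with 9 called lower and a median of -0.52.

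**Figure D1:**
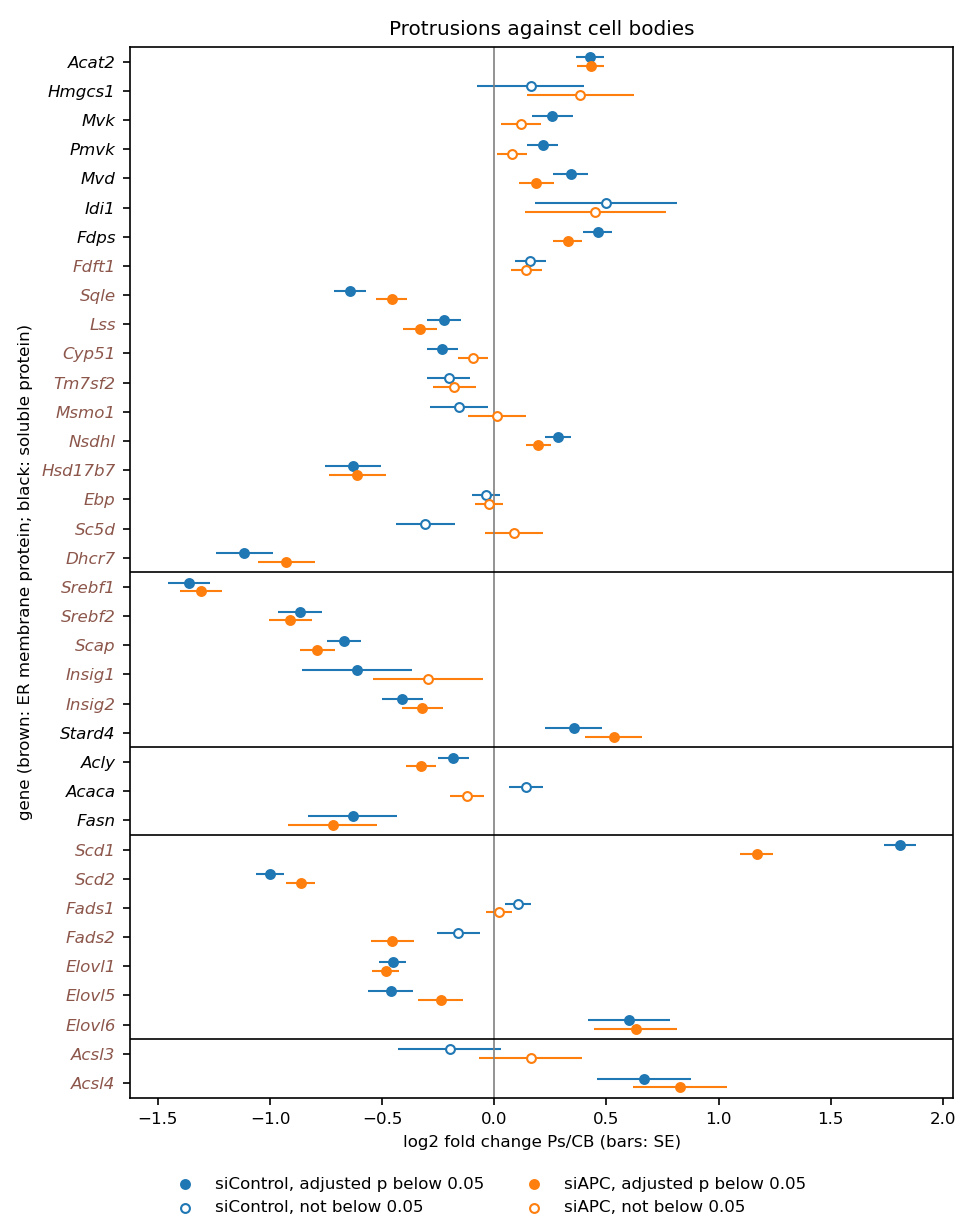
Log2 change between Ps and CB (x axis) for each of the 36 genes, with siControl in blue and siAPC in orange. Points are limma estimates, bars are ± SE, filled points have an adjusted p below 0.05 and open points do not, and gene names are brown for ER membrane products and black for soluble ones; Scd1 lies farthest to the right at 1.81 and 1.17, and Srebf1 farthest to the left at -1.36 and -1.31.

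At the head of the sterol pathway, Acat2, which makes acetoacetyl-CoA in the cytosol, stood at 7.33, 7.32, 7.23 and 7.38 in siControl CB and at 7.59, 7.75, 7.87 and 7.75 in siControl Ps. Every Ps library was above every CB library, and the rise was 0.43 ± 0.06 (adjusted p = 8.1e-06). However, 45.9% of the 50-nt stretches of Acat2 also occur in the listed gene Acat3, so reads of this pair may have been divided between them. Fdps, which makes farnesyl diphosphate, rose by 0.46 ± 0.06, from 8.51, 8.55, 8.34 and 8.53 to 8.96, 8.81, 9.08 and 8.93, again without overlap. In Fdps, 26.7% of exon bases overlap the unlisted gene model Gm43738 on the same strand. Mvd (0.34 ± 0.08), Mvk (0.26 ± 0.09) and Pmvk (0.22 ± 0.07), which carry mevalonate to isopentenyl diphosphate, were also called higher. Under scaling to total listed reads Fdps (0.16) was the only one of these 5 still called, with Acat2 at 0.13 (adjusted p = 0.12), Mvd at 0.043, Mvk at -0.038 and Pmvk at -0.081. Hmgcs1, the HMG-CoA synthase of the cytosol, and Idi1, the isomerase that makes dimethylallyl diphosphate, were not called, at 0.16 ± 0.24 (adjusted p = 0.57) and 0.50 ± 0.32 (adjusted p = 0.18).

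Farther down the pathway, at the ER, 5 enzymes were lower in siControl Ps. The deepest difference was in Dhcr7, which catalyses the last reduction to cholesterol (chr7:143823145-143848410, plus strand). Dhcr7 stood at 4.59, 4.86, 4.62 and 4.81 in siControl CB and at 3.40, 3.50, 3.85 and 3.66 in siControl Ps. All Ps libraries lay below all CB libraries, and the change was -1.12 ± 0.13 (adjusted p = 3.6e-07), or 46.2% of the CB level. Sqle, the squalene epoxidase (-0.64 ± 0.07), Hsd17b7, a sterol ketoreductase (-0.63 ± 0.13), Cyp51, the lanosterol demethylase (-0.23 ± 0.07), and Lss, which closes the sterol rings (-0.22 ± 0.07), were called lower too. Nsdhl, a sterol dehydrogenase, was the ER-bound enzyme called higher, by 0.29 ± 0.06 (adjusted p = 0.00027), and Fdft1, the squalene synthase, was at 0.16 ± 0.07 (adjusted p = 0.052). Without a stated use of strand in counting, Fdft1 and Cyp51 may share reads with Ctsb and Akap9, which lie opposite 18.3% and 3.76% of their exon bases. Both Lss and Nsdhl depended on the processing: Lss came to 0.036 after a loess correction for GC content and transcript length, and Nsdhl to -0.012 when scaled to total listed reads.

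Of the 6 regulators, 5 were lower in Ps and 1 was higher, beside 31.2% and 29.1% of all genes, with a median of -0.64. Srebf1 (chr11:60199089-60222581, minus strand) stood at 7.65, 7.62, 7.46 and 7.62 in siControl CB and at 6.17, 5.98, 6.40 and 6.34 in siControl Ps. The groups were far apart, with a change of -1.36 ± 0.09 (adjusted p = 5.7e-10), or 38.9% of the CB level. Srebf2 (chr15:82147181-82205379, plus strand) went from 8.86, 8.84, 8.75 and 8.92 to 7.82, 7.74, 8.23 and 8.12, a change of -0.87 ± 0.10 (adjusted p = 2.7e-07). Scap (-0.67 ± 0.08), Insig1 (-0.61 ± 0.25, adjusted p = 0.037) and Insig2 (-0.41 ± 0.09) were also lower, although the Insig1 groups overlapped and its call was lost in 8 of the 26 alternatives, the omission of the 4 libraries with a GC trend (-0.34) among them. Stard4, a soluble carrier of cholesterol, was the regulator list's only member called higher, at 0.35 ± 0.13 (adjusted p = 0.022), but its groups overlapped and its call was lost in 6 of the 26 alternatives, total-read scaling (0.057) among them.

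Among fatty acid genes, Fasn, the fatty acid synthase, was 8.46, 8.38, 8.58 and 8.77 in siControl CB and 7.53, 7.46, 8.39 and 8.28 in siControl Ps. Replicates 1 and 2 were far below CB, replicates 3 and 4 were at or just under its range, and the change of -0.63 ± 0.20 (adjusted p = 0.010) came to -0.05 after the loess correction. Acly, which makes cytosolic acetyl-CoA from citrate, was lower by a smaller step (-0.18 ± 0.07, adjusted p = 0.026) and took the opposite sign after that correction (0.12). Acaca, which makes malonyl-CoA, was not called at 0.14 ± 0.08. Elovl1 and Elovl5, elongases of long saturated and of polyunsaturated chains, fell by 0.45 ± 0.06 and 0.46 ± 0.10, while Elovl6, which lengthens palmitoyl chains, and Acsl4, which activates arachidonate, rose. Elovl6 stood at 2.09, 2.03, 3.01 and 2.26 in siControl CB and at 2.54, 2.95, 3.17 and 3.13 in siControl Ps, an overlapping pair of groups with a change of 0.60 ± 0.18 (adjusted p = 0.0087). Acsl4 stood at 2.17, 2.63, 3.17 and 2.41 in CB and at 3.10, 3.65, 3.04 and 3.26 in Ps, with a change of 0.67 ± 0.21 (adjusted p = 0.0094). In both, siControl CB replicate 3 was the library that reached into the Ps range, and neither call held in every alternative examined.

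The pair of stearoyl-CoA desaturases, ER enzymes that put a double bond into saturated acyl chains, lie close together on chromosome 19 and went in opposite directions. Scd1 (chr19:44394455-44407879, minus strand) stood at 8.10, 8.07, 7.95 and 7.997 in siControl CB and at 10.00, 9.96, 9.76 and 9.62 in siControl Ps. It was the member with the highest Ps/CB ratio, 3.50-fold (log2 change 1.81 ± 0.07, 95% interval 1.66 to 1.96, adjusted p = 1.3e-12), and the only one of the 36 that passed the rule for a Ps-enriched RNA (fold above 2 at an unadjusted p below 0.05), against 7.19% of all genes. Scd2 (chr19:44293674-44306864, plus strand) stood at 10.48, 10.53, 10.42 and 10.57 in siControl CB and at 9.30, 9.56, 9.57 and 9.57 in siControl Ps, a change of -0.9995 ± 0.06 (adjusted p = 2.5e-10). By the mirror rule for a CB-enriched RNA, Srebf1 and Dhcr7 passed (6.82% of all genes did), and Scd2 lay just outside it. The RNAs share few bases, with 3.89% of the 50-nt stretches of Scd1 found in Scd2 and 3.02% of those of Scd2 in Scd1.

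Per kilobase of the longest annotated transcript, Scd2 was the most abundant of the 36 RNAs in siControl CB at 265 CPM per kb, and Scd1 ranked 10 at 54.2 CPM per kb. Elovl6, at 0.890 CPM per kb, and Idi1, at 1.10, were the least abundant. In siControl Ps the levels were 191 CPM per kb for Scd1 and 133 for Scd2. The ratio of Scd1 to Scd2 per kilobase was thus 0.190 to 0.216 in the siControl CB libraries and 1.17 to 1.84 in the siControl Ps libraries, so that Scd1 made up 15.9% to 17.8% of the summed level in CB and 54.0% to 64.8% in Ps. In siAPC cells the ratio was 0.223 to 0.243 in CB and 0.903 to 0.994 in Ps. This ratio was formed after the values of both genes had been seen and is given as a description.

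**Figure D2:**
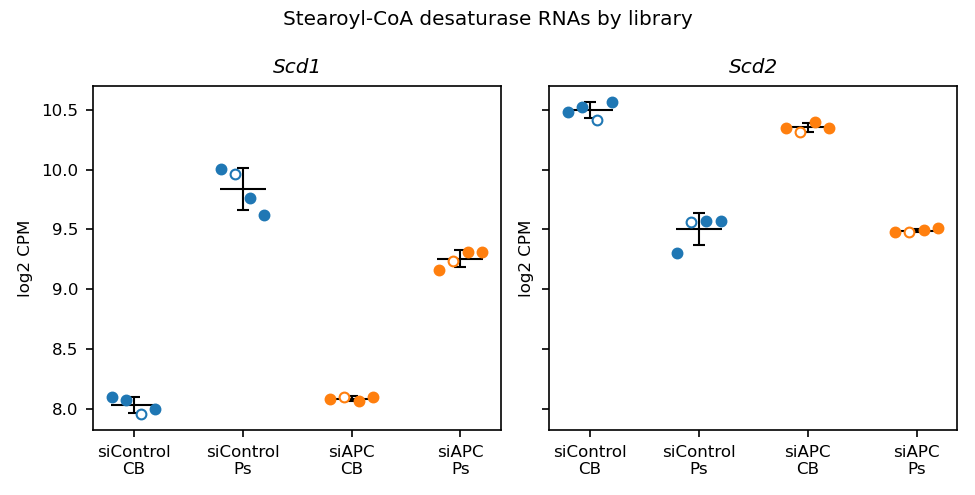
Log2 CPM (y axis) of Scd1 and Scd2 in each library of the 4 groups (x axis). Points are libraries, open for the 4 with a GC trend, black bars are means and whiskers SD with n = 4; Scd1 is highest in siControl Ps (9.62 to 10.00) and lower in siAPC Ps (9.16 to 9.31), while Scd2 is at 9.30 to 9.57 in all 8 Ps libraries.

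With siAPC, 8 of the 36 genes were higher in Ps than in CB, 14 were lower and 14 did not pass the test, beside 29.8% and 30.9% of all genes, with a median of -0.06 against 0.01 over all genes. All 8 (Acat2, Mvd, Fdps, Nsdhl, Stard4, Scd1, Elovl6 and Acsl4) were also called higher in siControl cells, and 13 of the 14 lower genes were also called lower there. Of all genes, 25.1% were called higher and 27.1% lower with both siRNAs. The siAPC call of Mvd was lost in 10 and that of Elovl5 in 11 of the 26 alternatives. The exception was Fads2, a desaturase of polyunsaturated fatty acids, at -0.46 ± 0.10 with siAPC and -0.16 ± 0.10 with siControl. Total-read scaling changed these counts to 5 higher and 19 lower with siAPC, and to 2 higher and 21 lower with siControl, since it moved the median of all genes by -0.16 and -0.30.

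Scd1 stood at 8.08, 8.10, 8.06 and 8.09 in siAPC CB and at 9.16, 9.23, 9.31 and 9.31 in siAPC Ps. The Ps libraries were all above the CB libraries, by 1.17 ± 0.07 (2.25-fold, adjusted p = 3.2e-10), and Scd1 was again the only member that passed the rule for a Ps-enriched RNA (7.67% of all genes), while Srebf1 was the only CB-enriched one (5.05% of all genes). Acsl4 stood at 2.63, 2.90, 2.24 and 2.47 in siAPC CB and at 3.42, 3.80, 2.97 and 3.37 in siAPC Ps, now without overlap (0.83 ± 0.21, adjusted p = 0.0020). For Elovl6 the values were 1.84, 1.89, 1.98 and 2.04 in CB and 2.62, 2.70, 2.41 and 2.54 in Ps, also without overlap (0.63 ± 0.18, adjusted p = 0.0063).

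At the other end, Srebf1 stood at 7.55, 7.40, 7.62 and 7.54 in siAPC CB and at 6.24, 5.95, 6.38 and 6.32 in siAPC Ps (-1.31 ± 0.09, adjusted p = 1.5e-09). Srebf2 stood at 8.81, 8.70, 8.95 and 8.82 in CB and at 7.92, 7.69, 8.03 and 7.99 in Ps (-0.91 ± 0.10, adjusted p = 1.8e-07). Dhcr7 stood at 4.13, 4.17, 4.20 and 4.39 in CB and at 3.19, 2.94, 3.48 and 3.55 in Ps (-0.93 ± 0.13, adjusted p = 4.2e-06). In these 3 genes every Ps library was below every CB library. Scd2 was 10.35, 10.32, 10.40 and 10.35 in siAPC CB and 9.48, 9.48, 9.49 and 9.51 in siAPC Ps, a change of -0.86 ± 0.06. With the replicate number as a block, since the siAPC CB and Ps libraries of the same number deviated together, Hmgcs1 (0.38, adjusted p = 0.012) and Insig1 (-0.29, adjusted p = 0.0018) also passed the test, against adjusted p = 0.17 and 0.31 without the block.

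Whether the Ps/CB ratio itself differed between siRNAs was tested by the interaction, log2(Diff FC), which is the siAPC change minus the siControl change. Of the 36 genes 1 was called, Scd1, at -0.64 ± 0.10 (95% interval -0.85 to -0.43, adjusted p = 0.043). All 4 siAPC Ps libraries lay below all 4 siControl Ps libraries, while the CB libraries overlapped. None was called higher. Over all genes 0.0231% (3 genes) were called lower and 0.0% higher in limma, and at an unadjusted p below 0.05 the counts of members were 3 lower (Scd1, Acaca at -0.26 and Fads2 at -0.30) and 1 higher (Sc5d, a sterol desaturase, at 0.39), where 1.71% and 2.07% of all genes were. The Scd1 difference was negative in all 26 alternatives, from -0.71 to -0.50, but its adjusted p ranged from 0.0049 to 0.21 and was above 0.05 in 16 of them, among them total-read scaling (-0.50, adjusted p = 0.11), the omission of the 4 libraries with a GC trend (-0.56, adjusted p = 0.21) and 12 of the 16 omissions of a library. For Scd2 the interaction was 0.14 ± 0.09, with a 95% interval of -0.05 to 0.33. The interval for Srebf1 ran from -0.22 to 0.33 and that for Acat2 from -0.18 to 0.19.

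The comparison of siAPC with siControl within a fraction asked how RNA levels differed with the knockdown. Of the 18 sterol pathway enzymes, 10 were called lower with siAPC in both fractions, although the calls of Pmvk in CB and of Hsd17b7 in both fractions were lost in many alternatives, and the SREBP genes themselves were not called. In CB, 15 of the 36 genes were lower and none was higher, where 5.87% and 7.52% of all genes were called, and at an unadjusted p below 0.05 the counts were 21 lower and 0 higher in limma, beside 13.9% and 12.6% of all genes. In Ps, 15 were lower and 1, Elovl5, was higher, where 11.2% and 10.7% of all genes were called, and the unadjusted counts were 18 and 1, beside 17.8% and 15.3%. The median change was -0.24 in CB and -0.30 in Ps over the members, against -0.04 and -0.02 over all genes, and 30 of the 36 changes were negative in each fraction. Lower in either fraction were 19 of the 36 genes, where 12.8% of all genes were, and lower in both were 11 of the 36, where 4.34% of all genes were. These were 10 sterol enzymes (Acat2, Hmgcs1, Pmvk, Mvd, Idi1, Fdps, Lss, Tm7sf2, Nsdhl and Hsd17b7) and Acly. The siControl libraries of these contrasts also enter the siControl Ps/CB values above. Scaling to total listed reads moved the median of all genes by 0.02 in CB and 0.16 in Ps and left 11 members lower and none higher in CB (29 of 36 changes negative), and 12 lower and 3 higher in Ps (19 of 36 negative).

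**Figure D3:**
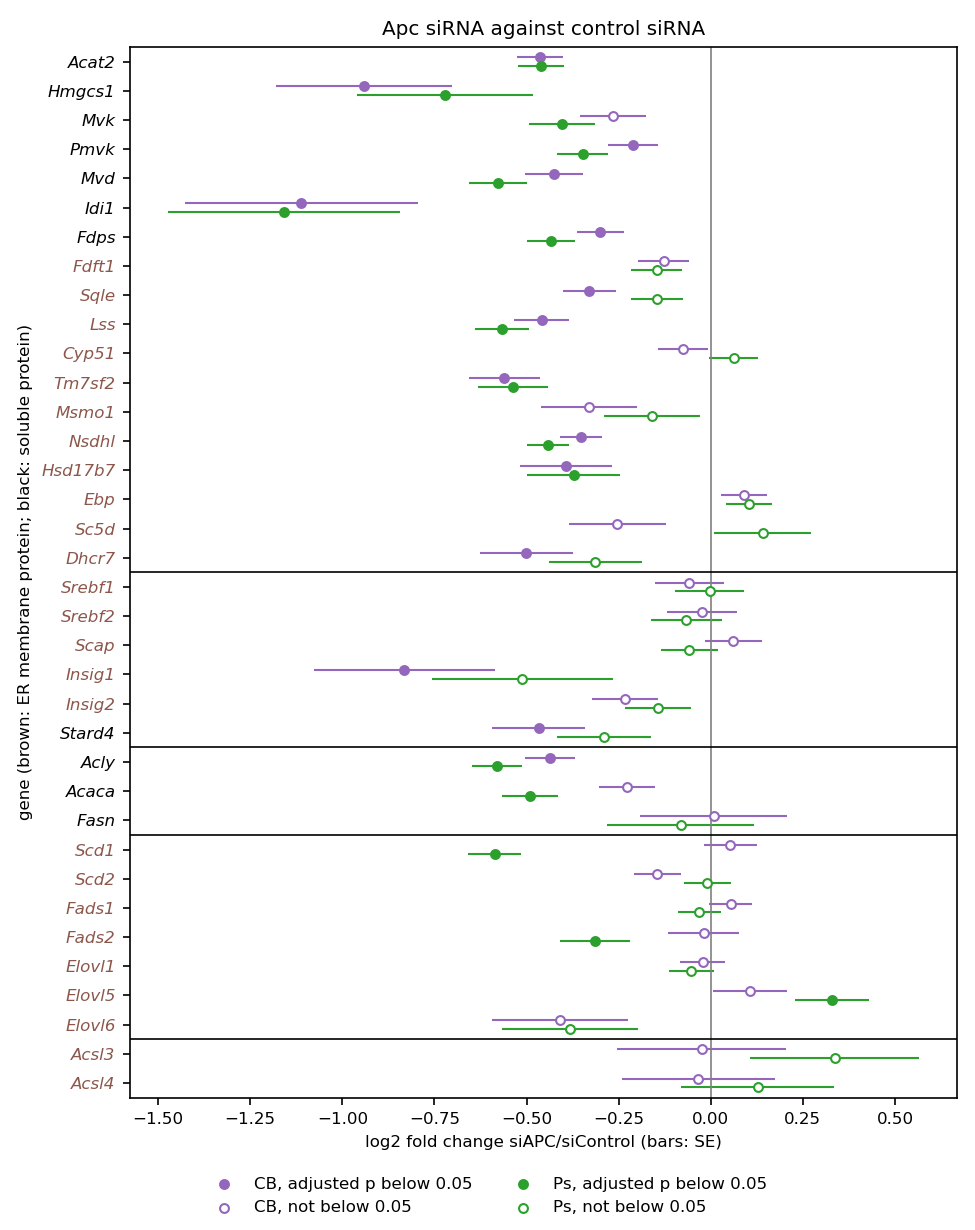
Log2 change between siAPC and siControl (x axis) in CB (purple) and Ps (green) for each of the 36 genes. Points are limma estimates, bars are ± SE, and filled points have an adjusted p below 0.05; most sterol pathway genes lie to the left of 0 in both fractions, with Idi1 at -1.11 and -1.16, while the regulators Srebf1, Srebf2 and Scap lie close to 0.

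In the sterol pathway 12 of 18 enzymes were lower in CB and 11 in Ps, beside 5.87% and 11.2% of all genes. The medians were -0.34 and -0.39. By the place of the product, 6 of 7 soluble enzymes were lower in CB and 7 of 7 in Ps, beside 6 and 4 of the 11 ER-bound enzymes. Under total-read scaling the 7 soluble enzymes were still all negative in Ps, with 6 called and a median of -0.30, whereas the 11 ER-bound enzymes split into 6 positive and 5 negative changes, with 1 called higher, 3 called lower and a median of 0.00 (all genes 0.14). Summed over the 18 enzymes, the level was 1880 ± 79.3 CPM in siControl CB, 1562 ± 26.1 in siAPC CB, 1983 ± 94.8 in siControl Ps and 1629 ± 26.8 in siAPC Ps (mean ± SD, n = 4).

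The deepest changes were in Idi1 and Hmgcs1. Idi1 (chr13:8885501-8892451, plus strand) stood at 1.40, 0.98, 2.67 and 1.23 in siControl CB and at -0.01, 0.98, 0.33 and 0.54 in siAPC CB. Both groups had a library at 0.98 but did not overlap at full precision, siControl CB replicate 3 was far above the rest, and the change was -1.11 ± 0.32 (adjusted p = 0.024). Without that library it was -0.75 and was not called. In Ps, Idi1 stood at 1.39, 2.02, 2.48 and 2.39 with siControl and at 0.81, 1.21, 0.73 and 0.89 with siAPC, a change of -1.16 ± 0.32 (adjusted p = 0.012) that passed the test in all 26 alternatives and left 44.8% of the level. These values rest on 21 to 147 reads of Idi1 per library, and 21.3% of its 50-nt stretches occur in the unlisted gene model Gm13502.

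Hmgcs1 (chr13:119690379-119708260, plus strand) stood at 4.52, 4.39, 5.69 and 5.34 in siControl CB and at 3.76, 4.09, 4.08 and 4.24 in siAPC CB. The siAPC libraries lay below the lowest siControl library, and the siControl libraries spread widely, and the change was -0.94 ± 0.24 (adjusted p = 0.012), or -0.72 without the 4 libraries with a GC trend (adjusted p = 0.055). In Ps the values were 4.51, 5.11, 5.51 and 5.45 with siControl and 4.30, 4.62, 4.42 and 4.37 with siAPC. Here siControl replicate 1 fell within the siAPC range, and the change of -0.72 ± 0.24 (adjusted p = 0.037) was not called under total-read scaling (-0.56, adjusted p = 0.15) or without siControl Ps replicate 2, 3 or 4 or siAPC Ps replicate 1, 3 or 4 (-0.73 to -0.60). Of the exon bases of Hmgcs1, 12.1% lie opposite the unlisted gene model Gm48342, and the use of strand in counting is not stated.

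Steadier changes of smaller size were seen in Acat2, Mvd, Fdps, Lss, Tm7sf2 and Nsdhl, which were called in both fractions in all 26 alternatives. Tm7sf2, a sterol reductase of the ER, stood at 5.14, 5.10, 4.77 and 5.06 in siControl CB and at 4.61, 4.34, 4.46 and 4.41 in siAPC CB. The groups did not overlap, and the change was -0.56 ± 0.10 in CB and -0.54 ± 0.10 in Ps. In Tm7sf2, 12.1% of exon bases overlap Vps51 on the same strand. Mvd, which makes isopentenyl diphosphate, stood at 6.56, 6.62, 6.51 and 6.72 in siControl CB and at 6.12, 6.14, 6.27 and 6.17 in siAPC CB, a change of -0.43 ± 0.08, and changed by -0.58 ± 0.08 in Ps. Lss changed by -0.46 ± 0.07 and -0.57 ± 0.07, Acat2 by -0.46 ± 0.06 in both, Nsdhl by -0.35 ± 0.06 and -0.44 ± 0.06, and Fdps by -0.30 ± 0.06 and -0.43 ± 0.06. Against these, Ebp (0.09 and 0.10), Cyp51 (-0.08 and 0.06) and Fdft1 (-0.13 and -0.15), were called in neither fraction.

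**Figure D4:**
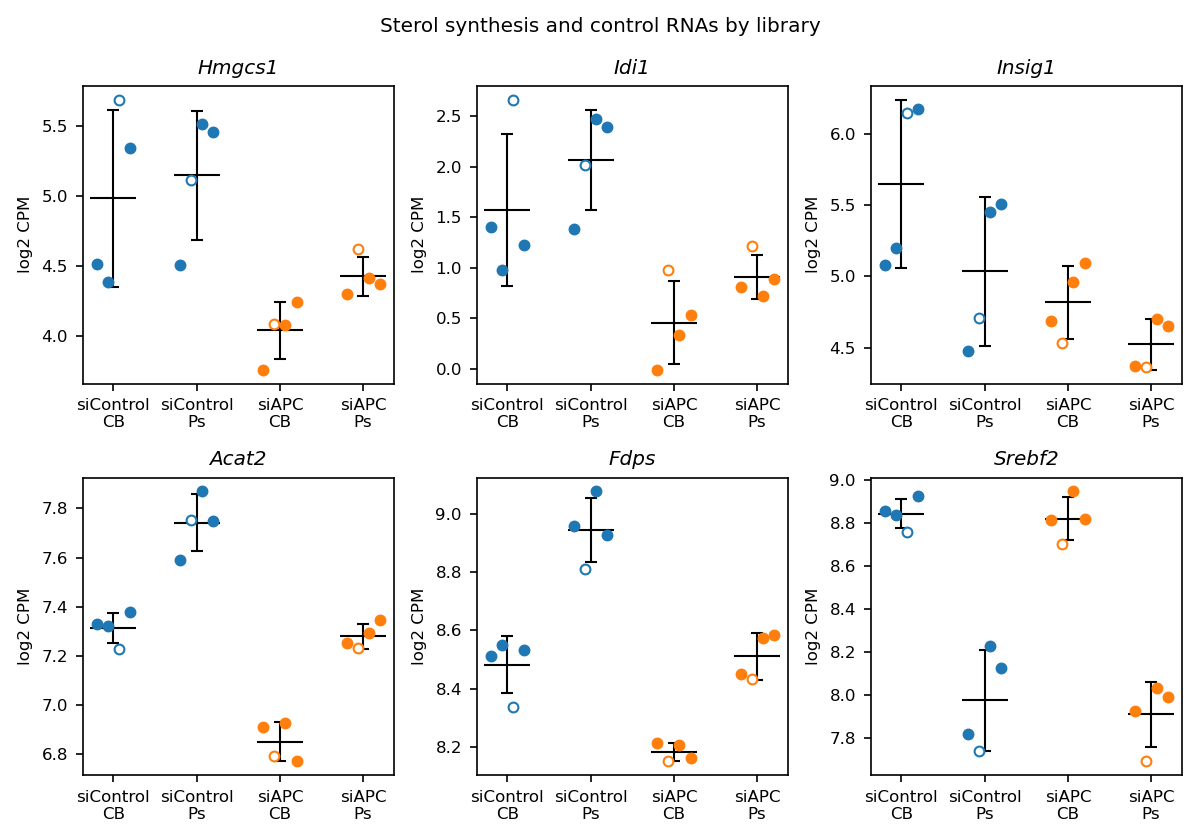
Log2 CPM (y axis) of Hmgcs1, Idi1, Insig1, Acat2, Fdps and Srebf2 in each library of the 4 groups (x axis), each gene on its own scale. Points are libraries, open for the 4 with a GC trend, black bars are means and whiskers SD with n = 4; Acat2 and Fdps are tight within groups and lower with siAPC, Hmgcs1, Idi1 and Insig1 spread widely in siControl, and Srebf2 is lower in Ps than in CB with either siRNA.

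With siAPC, 2 of the 6 regulators (Insig1 and Stard4) were lower in CB and 0 in Ps, beside 5.87% and 11.2% of all genes. Under total-read scaling 0 were lower in CB. In Ps, 1 of 6 was lower at an unadjusted p below 0.05 in limma, beside 17.8% of all genes. Insig1 (chr5:28071363-28078662, plus strand) stood at 5.08, 5.20, 6.15 and 6.17 in siControl CB and at 4.69, 4.53, 4.96 and 5.09 in siAPC CB. Only siAPC replicate 4 reached the siControl range, and the change was -0.83 ± 0.25 (adjusted p = 0.029). It was not called without siControl CB replicate 3 (-0.67) or 4 (-0.66), without siAPC CB replicate 1 (-0.79) or 2 (-0.74), or without the 4 libraries with a GC trend (-0.57, adjusted p = 0.16). Stard4 changed by -0.47 ± 0.13 in CB (adjusted p = 0.018) and was not called without siControl CB replicate 3 (-0.37) or 4 (-0.40) or without siAPC CB replicate 1 (-0.40). In Ps the Insig1 change was -0.51 ± 0.25 (adjusted p = 0.15). Ps libraries of the same number deviated together across siRNAs, and with that number as a block Insig1 (adjusted p = 0.014) and Dhcr7 (-0.31, adjusted p = 0.023) were called lower in Ps as well. Srebf2 (-0.02 ± 0.10 and -0.07 ± 0.10), Srebf1 (-0.06 ± 0.09 and -0.00 ± 0.09) and Scap (0.06 ± 0.08 and -0.06 ± 0.08) were called in neither fraction, and the 95% interval for Srebf1 in Ps ran from -0.20 to 0.19.

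Among fatty acid genes, Acly was lower in both fractions. Acly stood at 8.71, 8.72, 8.63 and 8.73 in siControl CB and at 8.29, 8.25, 8.28 and 8.23 in siAPC CB, a tight separation with a change of -0.44 ± 0.07 (adjusted p = 0.00018), and it changed by -0.58 ± 0.07 in Ps (adjusted p = 4.6e-06). Acaca was lower in Ps (-0.49 ± 0.08) but not called in CB (-0.23 ± 0.08, adjusted p = 0.052), and 52.6% of its 50-nt stretches occur in the unlisted gene model Gm5182. Fasn was called in neither fraction (0.01 ± 0.20 and -0.08 ± 0.20).

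The desaturases and elongases had 0 of 7 called in CB in limma, where 5.87% of all genes were lower and 7.52% higher. At an unadjusted p below 0.05, 2 of 7 were lower in CB, beside 13.9% of all genes. In Ps, 2 of 7 were called lower and 1 higher, beside 11.2% and 10.7% of all genes. Scd1, whose library values are given above, was lower in siAPC Ps than in siControl Ps by 0.59 ± 0.07 (66.6% of the siControl level, adjusted p = 8.7e-06), with no overlap, and passed the test in all 26 alternatives. In CB its change was 0.05 ± 0.07, with a 95% interval of -0.10 to 0.20. Scd2 showed -0.01 ± 0.06 in Ps and -0.15 ± 0.06 in CB (adjusted p = 0.15). Elovl5 (chr9:77917364-77984519, plus strand) stood at 4.69, 4.92, 4.52 and 4.42 in siControl Ps and at 4.95, 5.18, 4.85 and 4.89 in siAPC Ps. siControl replicate 2 was the only siControl library within the siAPC range, the change was 0.33 ± 0.10 (adjusted p = 0.024), and it was not called without siControl Ps replicate 3 (0.29) or 4 (0.26) or without siAPC Ps replicate 2 (0.26). Fads2 was lower in Ps (-0.31 ± 0.10, adjusted p = 0.024) and also lost its call under several alternatives, total-read scaling (-0.15) among them. The acyl-CoA synthetases Acsl3 and Acsl4 were called in neither fraction.

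**Figure D5:**
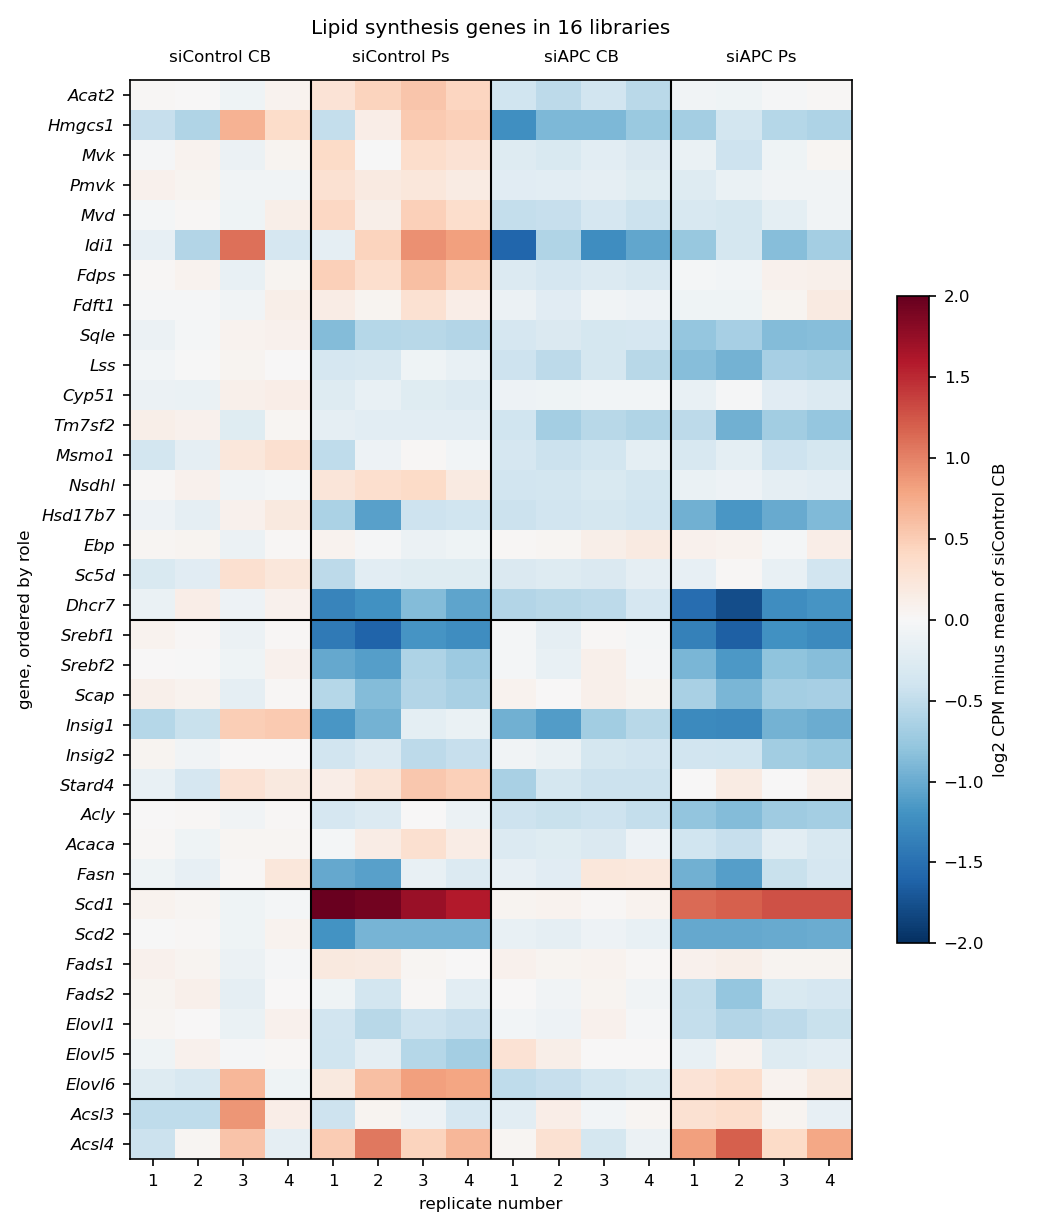
Log2 CPM of the 36 genes (y axis, grouped by role) in the 16 libraries (x axis, grouped by fraction and siRNA), each shown as the difference from that gene's siControl CB mean on a colour scale from -2 to 2. Black lines divide roles and groups; Scd1 is the highest gene in the Ps libraries, the rows of Srebf1, Srebf2 and Dhcr7 are low in all Ps libraries, and most sterol rows are low in the siAPC CB libraries.

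Genes of the same pathways outside the 36 were counted from lists of known members. The shares of all genes called were 29.1% higher and 31.2% lower in siControl Ps/CB, 29.8% and 30.9% in siAPC Ps/CB, 7.52% and 5.87% with siAPC in CB, and 10.7% and 11.2% with siAPC in Ps. Of 13 listed other fatty acid synthesis genes, 2 were lower with siAPC in CB and 4 in Ps, among them Acss2, which makes acetyl-CoA from acetate (-0.43 and -0.56), and Slc25a1, the mitochondrial citrate carrier (-0.42 and -0.57), and 1 was higher in each fraction. Of 13 listed genes of fatty acid oxidation, the pathway that breaks acyl chains down, 8 were higher and 2 lower in siControl Ps than in CB, and with siAPC 4 were lower in CB and 9 in Ps with none higher. Total-read scaling turned the oxidation list to 3 higher and 5 lower in siControl Ps/CB (median from 0.26 to -0.04, all genes -0.30) and left 4 lower in Ps with siAPC. Of 12 listed genes of glycerolipid synthesis and storage, 8 were lower in siControl Ps and 9 in siAPC Ps, and with siAPC 1 was lower and 1 higher in each fraction, the higher one being the lipid droplet coat gene Plin2 (0.66 ± 0.08 and 0.72 ± 0.08). Of 8 listed genes of the sterol sensor LXR and sterol efflux, 4 were lower in siControl Ps than in CB. With siAPC, 1 was higher and 1 lower in CB and 2 were higher in Ps. The shares of all genes above hold for the deposited scaling only. Total-read scaling moved the median of all genes by -0.30 in siControl Ps/CB and by 0.16 with siAPC in Ps. Under total-read scaling the counts in siControl Ps/CB were 12 glycerolipid genes and 6 of the LXR list lower. With siAPC in Ps they were 3 other fatty acid synthesis genes higher and 2 lower, 6 glycerolipid genes higher and 1 lower, and 3 of the LXR list higher. In the interaction 0 genes of these lists were called in limma, and 0 had an unadjusted p below 0.05.

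The ER-bound members were set beside mRNAs of the ER translocation and targeting machinery, which membrane proteins share. That list mixes ER membrane products with subunits of the soluble signal recognition particle, so it is not a set of ER products only. Of 24 listed genes of that kind, 10 were higher and 8 lower in siControl Ps than in CB with a median of -0.08, while of the 25 ER membrane members 4 were higher and 13 lower with a median of -0.23, and of the 11 soluble members 6 were higher and 2 lower with a median of 0.26, where 29.1% of all genes were higher and 31.2% lower. Total-read scaling moved the median of all genes by -0.30 in this comparison. The 25 ER membrane members then had 1 higher and 19 lower, the 11 soluble members 1 higher and 2 lower, and the 24 ER translocation genes 7 higher and 12 lower. Across genes, the siControl Ps/CB change had a Spearman rho of -0.14 with transcript length and -0.33 with GC content over the 36 members, and of -0.32 and -0.33 over the 12426 annotated genes, all from the same 8 libraries and with no test, since genes are not independent replicates.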

How the data were processed

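The authors made 16 stranded total RNA libraries, aligned the reads with STAR 2.4.2a to mm10, counted them per gene with Rsubread and a GENCODE annotation, and normalized them with limma-voom (limma 3.26.1). Whether counting used strand is not given in the sources used here. The deposited values are log2 CPM, where 0.5 reads were added to each count and library sizes were scaled. Inverting this gave whole reads for all 208240 values within 0.01 of a read, which supplied the depths. A floor of 3 reads corresponds to log2 values of -2.73 to -1.80 (counting error only).

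Groups came from the labels. The test was limma 3.58.1 in R 4.3.3 (lmFit, eBayes with an intensity trend) on the 16 libraries together, fitting a mean for each group without a block. It had 5 contrasts and Benjamini-Hochberg adjustment over 13015 genes. Before use it was run on simulated libraries, which had no GC trend and no pairing of replicates. In siControl Ps/CB it recovered 45.5% of 200 genes changed 1.5-fold, 85.5% at 2-fold and 99.5% at 4-fold. The 26 alternatives were a replicate block, 16 omissions of a library, 2 scalings, a filter, 1 CPM added, voom weights, the omission of 4 libraries, a loess correction (span 0.4), fits on the compared groups and eBayes without a trend. The members and lists were chosen with earlier results of these data known. Library values were given for Scd1 and Scd2 and, in each contrast, the 3 highest and 3 lowest called members with a mean of at least 1, and for further members chosen to illustrate a role. Whether replicate numbers pair libraries was checked by the correlation of deviations from group means over 10292 genes. It was 0.42 to 0.62 for all 4 siAPC CB and Ps pairs and 0.16 to 0.55 for the 4 Ps pairs across siRNAs. Shared 50-nt stretches and exon overlaps came from GENCODE mouse release 21. The list of other sterol genes is not reported here.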

Additional observations from a re-analysis of the deposited data

Results flagged for a closer look

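The interaction of Scd1 was the only one of the 36 called, with a Ps/CB log2 change that was lower with siAPC than with siControl by -0.64. Dixon's ratio was examined in all 144 combinations of a member and a group of 4 libraries, and 6 of them held a library far from the other 3, where chance gives about 1 in 20. In siControl Ps replicate 1, Sqle was 6.70 (the others 6.99 to 7.01), Sc5d was 3.23 (3.51 to 3.54) and Scd2 was 9.30 (9.56 to 9.57). In siControl CB replicate 3, a library with a GC trend, Ebp was 6.28 (6.44 to 6.46) and Acly was 8.63 (8.71 to 8.73). In siAPC Ps replicate 2, also with a GC trend, Scap was 6.12 (6.35 to 6.38). The count of 6 in 144 does not exceed the chance rate of 1 in 20, and whether anything set these libraries apart was not tested.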

How the results depend on the processing

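Of the called members, 13 of 25 in siControl Ps/CB, 14 of 22 in siAPC Ps/CB, 9 of 15 in CB siAPC/siControl and 12 of 16 in Ps siAPC/siControl passed the test in every alternative, and the Scd1 interaction did not. Scaling to total listed reads gave 2 members higher in siControl Ps/CB, 5 higher in siAPC Ps/CB, 3 higher in Ps siAPC/siControl and 0 lower in the interaction. The interaction count was also 0 with 1 CPM added, without the 4 libraries with a GC trend and with eBayes without a trend, and the count higher in Ps siAPC/siControl was 0 with only the compared groups fitted. Without 1 library at a time, the counts were 8 to 11 higher and 12 to 16 lower in siControl Ps/CB, 7 to 9 and 13 to 14 in siAPC Ps/CB, 0 to 0 and 0 to 1 in the interaction, 0 to 0 and 10 to 17 in CB siAPC/siControl, and 0 to 1 and 12 to 16 in Ps siAPC/siControl, and 1 to 1 members were Ps-enriched with either siRNA. Some values changed sign, and the genes named here are examples, not all that did so. After the loess correction Acly (0.12) and Lss (0.036) did so in siControl Ps/CB and Nsdhl (-0.077) in siAPC Ps/CB. In siAPC Ps/CB that correction left 1 of the 11 ER-bound sterol enzymes positive, against 4 without it. Under total-read scaling Mvk (-0.038), Nsdhl (-0.012), Pmvk (-0.081) and Fads1 (-0.19) did so in siControl Ps/CB. Fads1 also did so in siAPC Ps/CB (-0.13) and Ps siAPC/siControl (0.13). Among the 25 ER membrane members, positive changes then went from 6 to 3 in siControl Ps/CB and from 9 to 5 in siAPC Ps/CB. In Ps siAPC/siControl they went from 6 to 16. The causes were not tested. The replicate numbers did not pair all siControl CB and Ps libraries or all CB libraries across siRNAs. Between siControl CB and Ps the correlations were 0.34 and 0.43 for replicates 1 and 4, and -0.12 for both replicates 2 and 3. Between the CB libraries of the 2 siRNAs they were 0.27 and 0.26 for replicates 1 and 4, and -0.34 and -0.32 for replicates 2 and 3. With the replicate block there were 11 members higher and 17 lower in siControl Ps/CB, with Fdft1, Tm7sf2 and Sc5d gained, and 17 lower in CB siAPC/siControl, with Mvk, Insig2 and Acaca gained and Pmvk lost. It gave 9 higher and 15 lower in siAPC Ps/CB, 17 lower in Ps siAPC/siControl, and kept the Scd1 interaction (adjusted p = 0.034). Depth limited Idi1 most, with 21 to 147 reads per library.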

Other observations

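Insig1 and Fasn were higher in replicates 3 and 4 than in replicates 1 and 2 within each of the 4 groups, a pattern found after the values were seen and held by 1.83% of all genes. Nr1h3, the sterol sensor LXR alpha, was higher with siAPC by 1.82 ± 0.40 in CB (adjusted p = 0.0043) and 1.37 ± 0.40 in Ps (adjusted p = 0.019), from mean levels of -1.40 and -1.04 in siControl. Lipe, the hormone-sensitive lipase, was lower by -0.54 ± 0.10 and -0.65 ± 0.10, and Acadl, a dehydrogenase of fatty acid oxidation, by -0.40 ± 0.06 and -0.49 ± 0.06. Between fractions of siControl cells, Gpam, which starts glycerolipid synthesis, was lower in Ps by -1.60 ± 0.17, and Dgat1, which makes triglyceride, by -1.01 ± 0.06.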
